A study of Mus musculus with 75 samples.

Results

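Toll-like receptors (TLRs) are membrane proteins with which macrophages, dendritic cells, granulocytes, B cells and some non-immune cells detect molecules of microbes. The 10 mouse receptor genes Tlr1, Tlr2, Tlr3, Tlr4, Tlr5, Tlr6, Tlr7, Tlr8, Tlr9 and Tlr13 were taken as the rows of these symbols in the gene count tables of the chow and high-fat diet (HFD) animals, and they are 10 of the 21625 genes that both tables hold. Receptors at the cell surface bind lipopeptides, lipopolysaccharide and flagellin, whereas endosomal receptors bind nucleic acids. Ligand binding recruits adaptors such as MyD88 and TRIF and activates NF-kB and interferon regulatory factors, which turn on cytokine and chemokine genes. In adipose tissue most of these receptors are known from resident and infiltrating macrophages, and TLR4 is also made by adipocytes.

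RNA was sequenced from epididymal white fat (eWAT, a visceral depot), inguinal white fat (iWAT, a subcutaneous depot) and gastrocnemius muscle of mitochondrial-nuclear exchange (MNX) mice, in which the nuclear genome (n) of a strain is combined with the mitochondrial genome (mt) of another, and of wild types. The exchange lines were C57n:C3Hmt and C3Hn:C57mt. The wild types were C3H/HeN mice, written C3Hn:C3Hmt, and C57BL6/J mice, written C57n:C57mt. All animals were weaned onto chow, and from week 6 to week 12 to 13 of age they received HFD or stayed on chow. The 75 libraries form 20 groups of 3 or 4: 14 eWAT and 14 iWAT libraries on HFD, and 15 eWAT, 16 iWAT and 16 gastrocnemius libraries on chow. No label names a deleted gene, a transgene or the sex. C3H/HeN mice carry a working Tlr4, unlike the related C3H/HeJ strain.

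Depth was 15.7 to 23.9 M expected counts per library in eWAT on HFD and 19.3 to 28.8 M on chow, 16.1 to 25.8 M in iWAT on HFD and 21.2 to 26.3 M on chow, and 20.4 to 31.5 M in muscle (M, mega). Summed adipocyte markers reached 5519 to 36972 counts per M (CPM) in fat and 187 to 444 CPM in muscle, and summed skeletal muscle markers 143316 to 179445 CPM in muscle. In iWAT the muscle markers summed to 26.3, 1209 and 18808 CPM (lowest, median, highest) on HFD and 8.27, 156 and 14355 CPM on chow. Their iWAT medians were 2301 CPM with C57n and 152 CPM with C3Hn on HFD, and 56.4 and 274 CPM on chow. In eWAT they reached at most 93.1 CPM on HFD and 721 CPM on chow. Whether muscle RNA affects the iWAT results was not tested. All chow libraries carry 1 run code and the HFD libraries 3 others, so diet and run cannot be told apart. The G+C content of the reads was 48.91 ± 0.45% in eWAT on HFD, 49.47 ± 0.35% in eWAT on chow, 48.05 ± 0.57% in iWAT on HFD and 48.96 ± 0.57% in iWAT on chow (SD, n = 14, 15, 14 and 16). On chow the nuclear genome follows the sequencing lane apart from 1 eWAT library. Each chow lane held a single tissue, so tissue and lane cannot be told apart on chow. Of the eWAT libraries, 6 held epididymal epithelium markers above 1000 CPM in sum (1 on HFD, C3Hn:C3Hmt replicate 1; 5 on chow), and 15 iWAT libraries held B cell markers above 100 CPM (4 on HFD, 11 on chow), as lymph node does. The B cell rule was applied to iWAT only. In eWAT the highest B cell marker sum was 139 CPM, in a chow C57n library. Diet and nuclear genome were also tested without the 6 in eWAT and without the 15 in iWAT. The depots were tested without the 6 and without all 21. Single genotypes of iWAT were not tested without the 15. The fits without the 15 or the 21 left a single library in some chow iWAT genotypes, so only their estimates are given.

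Tlr1 and Tlr6 are neighbours on chromosome 5 (mm9: Tlr1 65316050-65324000, Tlr6 65344345-65351287, both on the minus strand) and share coding sequence. Reads from the shared stretches cannot be assigned to either gene by sequence. Of the 2603 stretches of 50 bases in the Tlr1 transcript, 454 (17.4%) are also in Tlr6, and of the 2554 in Tlr6, 454 (17.8%) are in Tlr1. The other 8 receptors have 0 stretches shared with another gene. The shared sequence lies in 6 runs that sum to 748 bases. A 300-base window of coding exon there differs at 1 base (capital letter; NCBIM37, the mm9 assembly, GENCODE vM1; chr5:65316776-65317075 and chr5:65345067-65345366, minus strand, 5′ to 3′).
Tlr1: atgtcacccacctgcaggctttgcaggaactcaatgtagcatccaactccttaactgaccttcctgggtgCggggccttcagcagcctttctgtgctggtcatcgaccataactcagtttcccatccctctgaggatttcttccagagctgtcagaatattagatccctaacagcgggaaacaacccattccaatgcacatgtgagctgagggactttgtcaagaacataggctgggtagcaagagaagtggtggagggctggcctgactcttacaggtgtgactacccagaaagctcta
Tlr6: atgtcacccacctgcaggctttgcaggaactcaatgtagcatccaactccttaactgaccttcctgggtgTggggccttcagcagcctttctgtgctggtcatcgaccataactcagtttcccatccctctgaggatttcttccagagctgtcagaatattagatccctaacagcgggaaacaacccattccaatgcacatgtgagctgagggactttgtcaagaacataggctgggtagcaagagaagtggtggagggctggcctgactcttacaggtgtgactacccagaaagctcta
The 120 coding bases just before the first shared run differ at 54 places (capitals; chr5:65317179-65317298 and chr5:65345470-65345589), which is the kind of stretch that tells the genes apart.
Tlr1: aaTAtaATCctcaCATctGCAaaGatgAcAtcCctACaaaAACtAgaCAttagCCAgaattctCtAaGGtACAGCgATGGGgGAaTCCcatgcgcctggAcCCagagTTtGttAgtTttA
Tlr6: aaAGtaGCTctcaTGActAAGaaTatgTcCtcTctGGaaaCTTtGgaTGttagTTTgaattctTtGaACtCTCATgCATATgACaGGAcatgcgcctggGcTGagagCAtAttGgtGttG
The deposited expected count was not a whole number in 66 of 75 libraries for Tlr1 and in 65 of 75 for Tlr6, against 0 to 17 libraries for the other 8, at a tolerance of 0.005 counts. The sum of both genes was therefore also tested for diet and for nuclear genome, but not between tissues or depots.

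Levels per transcript length were compared between the receptors. In eWAT on HFD the mean levels, in reads per kilobase of exon per M (RPKM), ran from Tlr13 at 15.4 ± 18.9 over Tlr8 (6.47 ± 3.89), Tlr4 (6.40 ± 1.13), Tlr3 (6.11 ± 1.02), Tlr7 (5.39 ± 2.94), Tlr2 (4.98 ± 2.36), Tlr6 (3.09 ± 2.28), Tlr5 (2.72 ± 0.984) and Tlr1 (1.80 ± 0.837) to Tlr9 at 1.08 ± 0.505 (SD, n = 14). In eWAT on chow the order began with Tlr13 (3.67 ± 4.88), Tlr3 (3.65 ± 0.795), Tlr4 (2.92 ± 0.939) and Tlr2 (2.86 ± 1.11) and ended with Tlr1 (0.968 ± 0.654) and Tlr9 (0.590 ± 0.325; SD, n = 15). Neighbours in both orders differ by less than the larger SD of each pair, and Tlr13 has an SD above its own mean. In iWAT on HFD Tlr3 (5.69 ± 1.32 RPKM) and Tlr4 (5.22 ± 1.25) were highest and Tlr9 (0.982 ± 0.826) lowest, and on chow Tlr1 had the highest mean (4.58 ± 5.55) but a median of 1.09 RPKM.

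In gastrocnemius the mean levels were 0.414 RPKM for Tlr2, 0.345 for Tlr4, 0.309 for Tlr3 and 0.290 for Tlr6, and 0.143 RPKM or less for the other 6 receptors. Relative to chow eWAT all 10 receptors were lower in muscle (82.6% of 18358 genes were called and 49.7% were lower), by log2 fold changes of -1.10 ± 0.20 (SE) for Tlr6 to -4.59 ± 0.55 for Tlr1. Relative to chow iWAT all 10 were lower as well (80.4% called, 46.3% lower), by -1.42 ± 0.20 for Tlr6 to -6.29 ± 0.53 for Tlr1, with adjusted p at or below 4.521e-06 in both comparisons. Summed macrophage markers were 59.6 to 126 CPM in muscle and 503 to 3086 CPM in chow eWAT. In bulk tissue fewer cells of a type and less RNA per cell cannot be told apart.

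**Figure D1:**
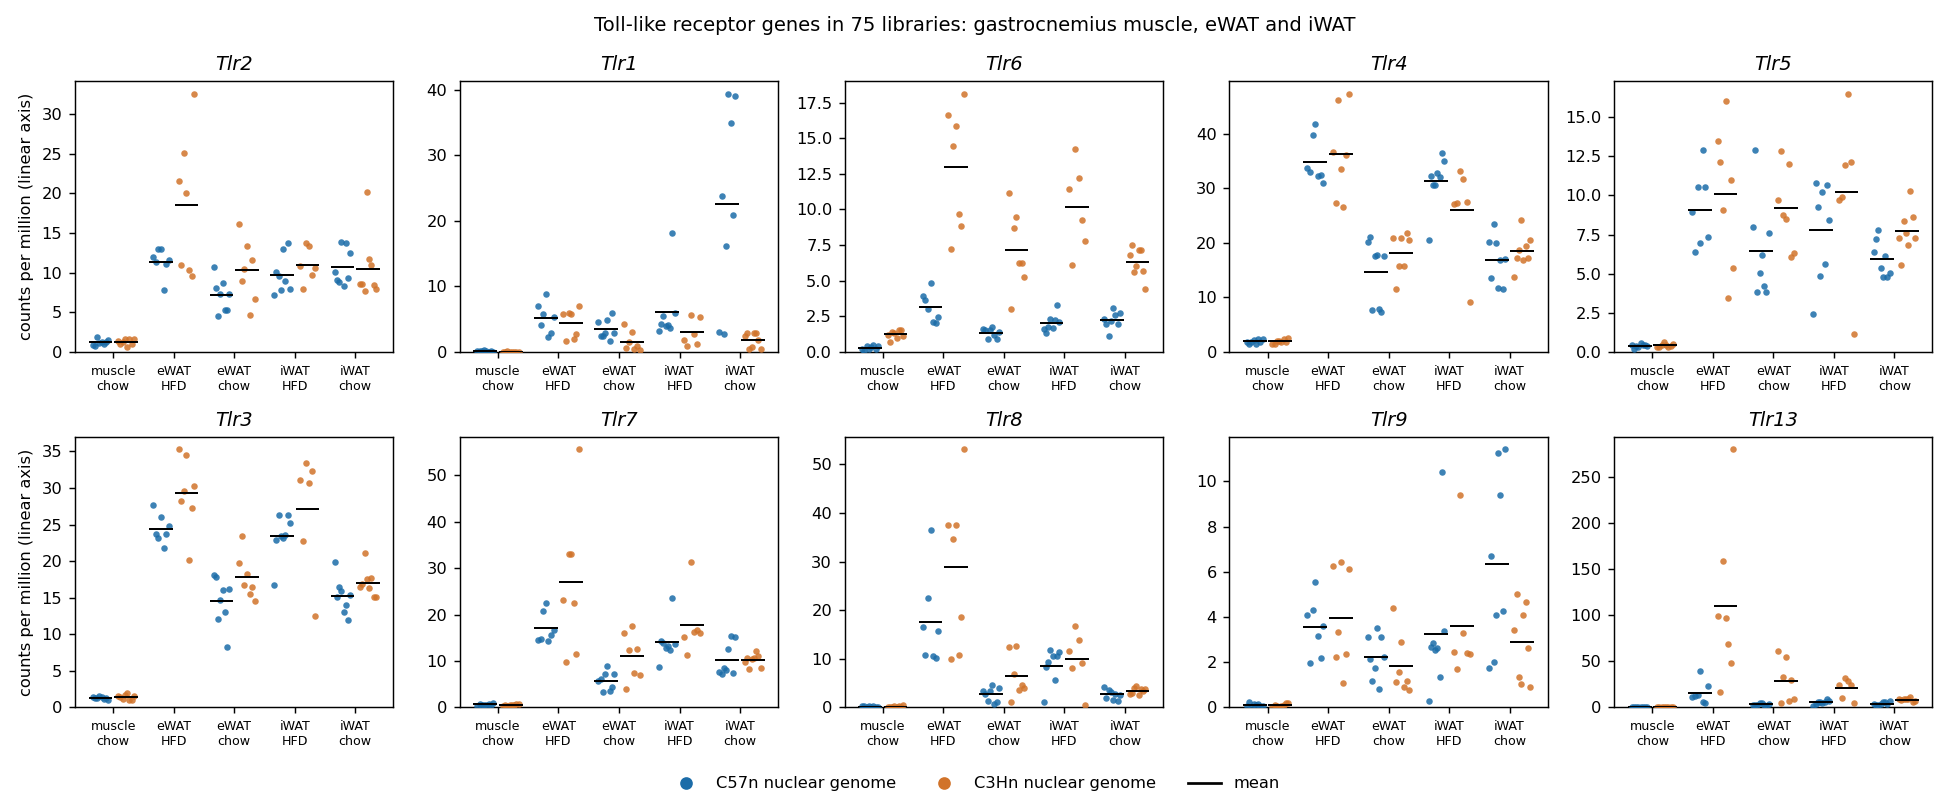
Counts per M (CPM, y axis) of the 10 Toll-like receptors in all 75 libraries, 1 panel per gene and 1 point per library, by tissue and diet with C57n libraries in blue on the left and C3Hn libraries in orange on the right of each column; black lines are means. Muscle is at the floor of each panel, Tlr4 in eWAT separates the diets without overlap, and Tlr6 separates the nuclear genomes in each column.

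In eWAT 9 of the 10 receptors were higher on HFD than on chow, where 41.3% of 17687 genes were called and 18.5% were higher. The receptors' median log2 fold change was 1.0, against -0.10 over all genes tested. Among the surface receptors, Tlr4, which detects lipopolysaccharide together with MD-2 (Ly96), had 26.6, 33.6 and 47.4 CPM (lowest, median, highest) on HFD and 7.23, 17.6 and 21.7 CPM on chow. Every HFD library lay above every chow library, and the log2 fold change was 1.06 ± 0.17 (adjusted p = 5.77e-05). Tlr2, the shared partner of the lipopeptide receptors, had 7.80, 11.8 and 32.6 CPM on HFD and 4.57, 8.04 and 16.2 CPM on chow. Its ranges overlapped, 4 of 14 HFD libraries lay above all chow libraries, and the change was 0.72 ± 0.16 (adjusted p = 0.001161).

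Tlr1, which pairs with Tlr2 for triacylated lipopeptides, had 1.60, 5.54 and 8.75 CPM on HFD and 0.297, 2.47 and 5.89 CPM on chow (1.13 ± 0.27, adjusted p = 0.002588). Tlr6, the partner for diacylated lipopeptides, had 2.00, 6.02 and 18.1 CPM on HFD and 0.885, 1.78 and 11.2 CPM on chow (0.95 ± 0.18, adjusted p = 0.0002914). Both pairs of ranges overlapped, and the sum of both genes was higher on HFD too (0.82 ± 0.19, adjusted p = 0.001832). Tlr5, the flagellin receptor, did not pass the test: it had 3.47, 9.80 and 16.1 CPM on HFD and 3.83, 7.58 and 12.9 CPM on chow (0.28 ± 0.20, adjusted p = 0.2654).

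Among the endosomal receptors Tlr8 and Tlr13 had the highest fold changes of the 10. Mouse Tlr8 is the homologue of the human receptor for single-stranded RNA breakdown products. Tlr8 had 9.96, 17.5 and 53.1 CPM on HFD and 0.799, 3.60 and 12.6 CPM on chow, with 9 of 14 HFD libraries above all chow libraries (2.35 ± 0.33, adjusted p = 1.116e-05). Tlr13, a mouse receptor for bacterial ribosomal RNA that humans lack, had 5.30, 31.4 and 280.5 CPM on HFD and 1.59, 4.62 and 61.1 CPM on chow (2.10 ± 0.37, adjusted p = 0.0001377). It had the widest spread of the 10, and its diets overlapped.

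Tlr7, the receptor for single-stranded RNA and the neighbour of Tlr8 on chromosome X, had 9.73, 18.8 and 55.6 CPM on HFD and 3.24, 7.13 and 17.5 CPM on chow (1.38 ± 0.24, adjusted p = 0.0001123). Tlr3, the double-stranded RNA receptor, had 20.2, 26.6 and 35.3 CPM on HFD and 8.22, 16.1 and 23.5 CPM on chow, with 11 of 14 HFD libraries above all chow libraries (0.69 ± 0.10, adjusted p = 1.969e-05). Tlr9, the receptor for unmethylated CpG DNA, had 1.09, 3.48 and 6.41 CPM on HFD and 0.786, 1.76 and 4.41 CPM on chow (0.93 ± 0.26, adjusted p = 0.006558). The HFD libraries were high as a group for each of these 3, and each pair of ranges overlapped. B cell markers, which accompany Tlr9 in lymphoid tissue, were lower on HFD for 5 of 8 and higher for 0 (22.9% of all genes lower). Their sums were 4.24, 9.78 and 20.3 CPM on HFD and 3.83, 11.9 and 139 CPM on chow.

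The 250 bases before the transcription start of Tlr8 and Tlr13 are shown because these genes had the highest fold changes and follow macrophage markers in eWAT (RefSeq promoter table, GRCm38.p6; the table holds 10 starts for 8 of the 10 receptors). Capitals mark GAGGAA or its reverse complement TTCCTC, the core that ETS family factors such as PU.1 bind, at -83 to -78 for Tlr13 (chrX:106143025-106143274, plus strand) and at -77 to -72 for Tlr8 (chrX:167264330-167264579, minus strand).
Tlr8: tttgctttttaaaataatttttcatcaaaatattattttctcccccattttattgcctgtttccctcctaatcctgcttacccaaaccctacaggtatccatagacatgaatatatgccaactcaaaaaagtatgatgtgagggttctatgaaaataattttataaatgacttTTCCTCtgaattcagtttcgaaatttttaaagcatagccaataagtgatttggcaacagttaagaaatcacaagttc
Tlr13: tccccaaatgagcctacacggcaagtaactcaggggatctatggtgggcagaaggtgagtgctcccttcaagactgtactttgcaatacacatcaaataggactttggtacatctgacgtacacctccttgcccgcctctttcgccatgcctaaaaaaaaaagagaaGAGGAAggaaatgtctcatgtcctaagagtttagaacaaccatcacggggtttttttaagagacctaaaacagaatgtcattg
These letters also stand upstream of Tlr1 (-23 to -18) and Tlr9 (-112 to -107), and 23.3% of the 32851 windows of this length in the table hold them. TGANTCA, the AP-1 motif, was found in Tlr9 (-58 to -52; 6.75% of windows), and an NF-kB motif (GGGA, any 4 bases, CC) in Tlr2, Tlr3 and Tlr5 (17.6% of windows), each on either strand. A match is a description of these letters and no binding site.

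Macrophage markers moved with the diet in eWAT: 10 of 16 were higher on HFD (18.5% of all genes higher). Their sum was 1154, 2152 and 6515 CPM (lowest, median, highest) on HFD and 503, 1218 and 3086 CPM on chow, with no marker at 0 in all libraries. With the mean of these markers as a covariate, Tlr8 (1.04 ± 0.22, adjusted p = 0.001755), Tlr3 (0.56 ± 0.13, adjusted p = 0.004642) and Tlr4 (0.52 ± 0.16, adjusted p = 0.02444) were still higher on HFD. The other 6 were no longer called, with 0.40 ± 0.19 for Tlr13 (adjusted p = 0.1269), 0.39 ± 0.15 for Tlr7 (0.06568) and 0.17 to 0.25 for Tlr1, Tlr2, Tlr6 and Tlr9. Removing each library's trend on G+C content and length ended the call of Tlr3 (0.22 ± 0.10, adjusted p = 0.08987). A run covariate ended those of Tlr1 (1.01 ± 0.35, adjusted p = 0.05386) and Tlr9 (0.82 ± 0.33, adjusted p = 0.0966). Since all chow libraries share a run code, this covariate separates only the HFD run codes from each other. It cannot adjust the diet difference for run.

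**Figure D2:**
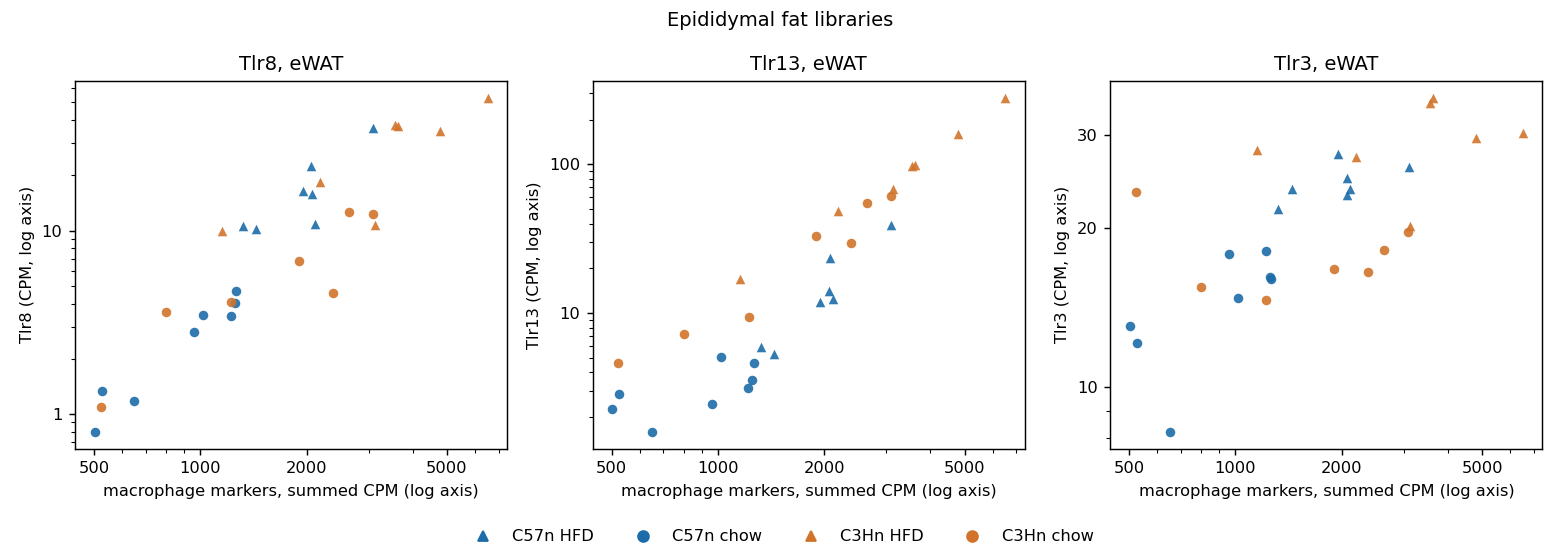
Tlr8, Tlr13 and Tlr3 (CPM, log axis) against the summed macrophage markers (CPM, log axis) in the 29 eWAT libraries, 1 point per library. Tlr8 and Tlr13 run with the marker sum, from 503 CPM in a chow library to 6515 CPM in an HFD library, and Tlr3 spans 8.22 to 35.3 CPM.

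Within eWAT the genes with the pattern most like Tlr13 over 29 libraries were Slc37a2 (r = 0.98 of log2 CPM), Apobec1 (0.98) and Hk3 (0.97), and in the 30 iWAT libraries Slc37a2 (0.94), Ptgds2 (0.90) and Itgax (0.90). For Tlr7 in eWAT they were March1 (0.96), Emr1 (0.96), which encodes the macrophage antigen F4/80, and Kcnk6 (0.96). The most alike was Wipf1 (0.96) for Tlr8, Adam9 (0.96) for Tlr4 and Pira6 (0.95) for Tlr6. For the other receptors in eWAT it was Bub1b (0.89) for Tlr1, Ki-67 (0.85) for Tlr9, Samhd1 (0.95) for Tlr2, Mbnl2 (0.94) for Tlr3 and Efna5 (0.82) for Tlr5. Tlr1 and Tlr9 were among each other's 3 most alike genes in eWAT (0.85). In iWAT Tlr2 had no gene above Nlrp3 at 0.75. The most alike there was Mlstd2 (0.86) for Tlr7, Adamts12 (0.96) for Tlr8, Twsg1 (0.96) for Tlr4 and Cdc27 (0.94) for Tlr3. It was 4432416J03Rik (0.95) for Tlr1, C530028O21Rik (0.94) for Tlr6, Wdr59 (0.93) for Tlr5 and Pik3ap1 (0.92) for Tlr9. These points share diet, run and depth, and the values are descriptions over libraries.

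In single genotypes of eWAT 14 of 40 receptor tests were called, all higher on HFD. They were 6 receptors in C57n:C57mt (17% of genes called, 6.75% higher, 10.2% lower), 3 in C57n:C3Hmt (7.21% of genes called, 3.24% higher, 3.97% lower), 5 in C3Hn:C57mt (11.3% of genes called, 5.86% higher, 5.4% lower) and 0 in C3Hn:C3Hmt (1.67% of genes called, 0.882% higher, 0.792% lower; 5 receptors at an unadjusted p under 0.05, and 3 by DESeq2). Tlr8 had 10.6, 10.2 and 15.8 CPM in C57n:C3Hmt on HFD and 1.33, 3.48, 4.68 and 0.799 CPM on chow (2.18 ± 0.65, adjusted p = 0.04488). In C3Hn:C57mt it had 37.4, 34.7 and 53.1 CPM on HFD and 12.4, 1.09, 6.81 and 12.6 CPM on chow (2.23 ± 0.64, adjusted p = 0.02848). The HFD libraries of either line lay above all of its chow libraries. Without the 6 libraries with epithelial RNA, 18 tests were called, 7 of them in C3Hn:C3Hmt: Tlr1 (2.40 ± 0.48, adjusted p = 0.006151), Tlr3 (0.64 ± 0.11, adjusted p = 0.002802), Tlr4, Tlr6, Tlr7, Tlr8 and Tlr13. The calls of Tlr3 (adjusted p = 0.0527) and Tlr8 (1.45 ± 0.44, adjusted p = 0.07829) in C57n:C3Hmt and of Tlr2 in C3Hn:C57mt (0.81 ± 0.31, adjusted p = 0.07636) ended there. The share of all genes called in that fit is not given here, so the count of 7 is not set against it.

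In C57n:C57mt Tlr8 had 16.5, 10.9, 22.6 and 36.4 CPM on HFD and 3.42, 2.80, 1.17 and 4.01 CPM on chow (2.95 ± 0.64, adjusted p = 0.006561), and in C3Hn:C3Hmt 9.96, 37.5, 10.8 and 18.5 CPM on HFD and 3.60, 4.58 and 4.06 CPM on chow (2.02 ± 0.68, adjusted p = 0.1226). In C3Hn:C3Hmt DESeq2 called Tlr8 (adjusted p = 0.02426), as did the fit without the 6 libraries (2.22 ± 0.39, adjusted p = 0.002802). Tlr8 ranges did not overlap in any of the 4 genotypes, and neither did those of Tlr3, Tlr4 and Tlr6. The share of all genes that separate in this way was not determined. Leaving out single libraries ended 11 of the 14 calls within a genotype in at least 1 fit; those of Tlr3, Tlr6 and Tlr8 in C57n:C57mt remained in all 29. With G+C and length trends removed, Tlr3 there was at 0.36 ± 0.18 (adjusted p = 0.1858), and 3 of the 14 calls were made (Tlr6, Tlr8 and Tlr13 in C57n:C57mt). The sum of Tlr1 and Tlr6 in C57n:C57mt was at 1.03 ± 0.36 (adjusted p = 0.05107). 

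**Figure D3:**
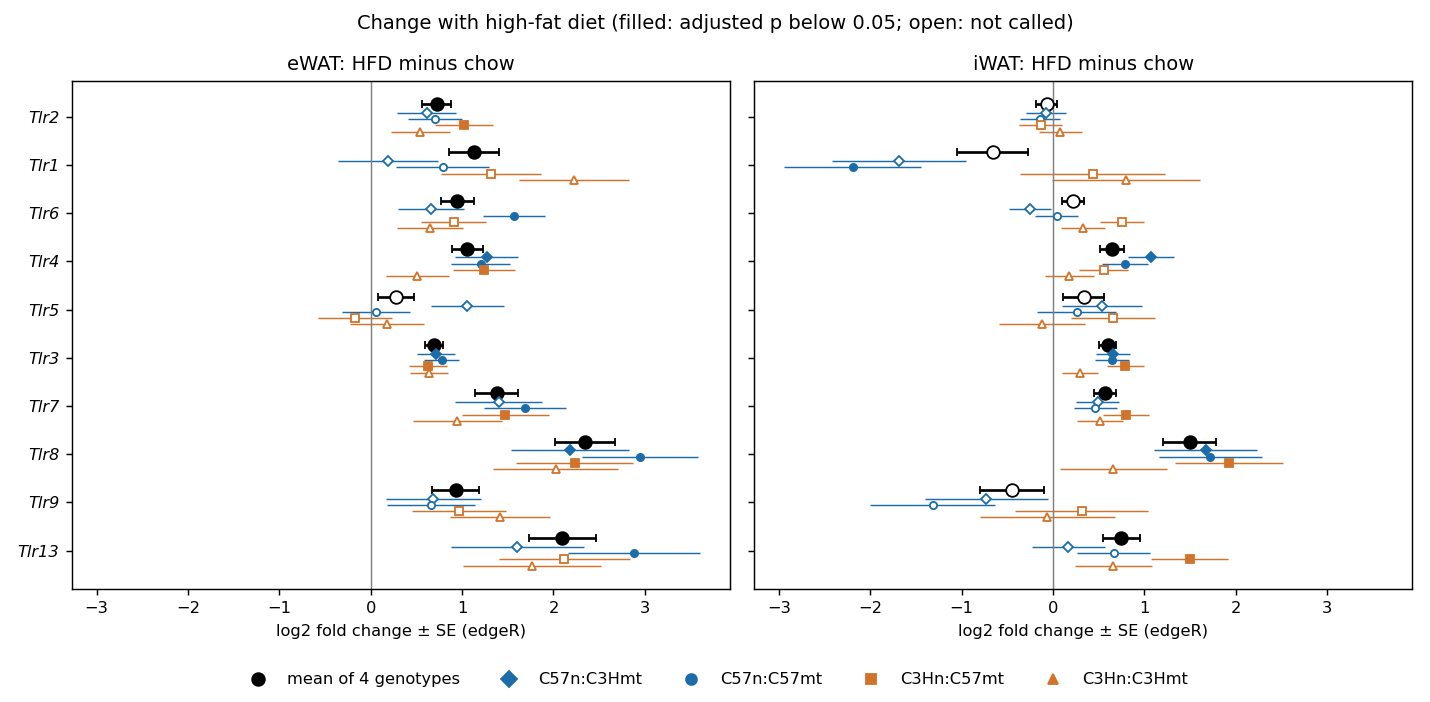
Log2 fold change HFD minus chow (x axis) of each receptor in eWAT and iWAT, with the SE as the bar; black points are the mean of 4 genotypes and coloured points single genotypes, filled where the adjusted p is below 0.05. In eWAT the means run from 0.28 (Tlr5) to 2.35 (Tlr8), and in iWAT from -0.66 (Tlr1) to 1.5 (Tlr8).

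In iWAT 5 receptors were higher on HFD and 0 lower (37.6% of 16884 genes called, 21.4% higher, 16.2% lower), with a receptor median of 0.45 against 0.01 over all genes. Tlr8 had 0.536, 9.92 and 16.8 CPM on HFD and 1.33, 3.06 and 4.49 CPM on chow (1.5 ± 0.29, adjusted p = 0.0002322). The low end on HFD came from C3Hn:C3Hmt replicate 3 at 0.536 CPM and 1 other library, and the other 12 HFD libraries lay above all chow libraries. Tlr4 had 9.23, 31.1 and 36.4 CPM on HFD and 11.5, 17.2 and 24.1 CPM on chow (0.65 ± 0.13, adjusted p = 0.000375). Here too C3Hn:C3Hmt replicate 3 was lowest and 12 HFD libraries lay above all chow libraries.

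Tlr3 had 12.5, 24.4 and 33.5 CPM on HFD and 11.9, 16.1 and 21.1 CPM on chow (0.60 ± 0.10, adjusted p = 3.289e-05). Tlr7 had 8.72, 14.1 and 31.4 CPM on HFD and 7.22, 10.1 and 15.4 CPM on chow (0.57 ± 0.12, adjusted p = 0.0007267), and Tlr13 1.60, 6.49 and 31.8 CPM on HFD and 2.10, 6.37 and 11.3 CPM on chow (0.75 ± 0.20, adjusted p = 0.005697). All 3 pairs of ranges overlapped. The receptors that did not pass the test were Tlr1 (-0.66 ± 0.39, adjusted p = 0.1851), Tlr9 (-0.45 ± 0.35, adjusted p = 0.3332), Tlr2 (-0.07 ± 0.11, adjusted p = 0.6712), Tlr5 (0.34 ± 0.23, adjusted p = 0.2507) and Tlr6 (0.22 ± 0.12, adjusted p = 0.1489). With the lymphocyte marker mean as a covariate Tlr6 was called (0.32 ± 0.12, adjusted p = 0.03769). The sum of Tlr1 and Tlr6 was at -0.54 ± 0.27 (adjusted p = 0.1193).

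The inguinal calls depend on how the libraries are treated. After removal of each library's G+C and length trend only Tlr8 was called (1.06), with 0.13 for Tlr3 (adjusted p = 0.2959), 0.18 for Tlr4 (0.321), 0.16 for Tlr7 (0.3437) and 0.40 for Tlr13 (0.1445). Of the macrophage markers 10 of 16 were higher on HFD in iWAT (21.4% of all genes higher). Their sums were 851, 1454 and 2134 CPM on HFD and 757, 1233 and 1497 CPM on chow. With these markers as a covariate Tlr3 (0.35 ± 0.11, adjusted p = 0.0264) and Tlr7 (0.43 ± 0.15, adjusted p = 0.04207) were called. C3Hn:C3Hmt replicate 3 on HFD was the only library of its run code and had the highest B cell marker sum in iWAT, 2893 CPM. Without it, Tlr1 was lower (-0.96, adjusted p = 0.04629) and Tlr5 higher (0.44, adjusted p = 0.02655), and the 5 calls held.

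Tlr1 and Tlr9 are also expressed by B cells. The summed B cell markers were 2.94, 34.1 and 2893 CPM on HFD and 2.60, 481 and 1325 CPM on chow. Tlr1 had 0.937, 4.03 and 18.1 CPM on HFD and 0.477, 2.90 and 39.3 CPM on chow, and the 5 chow libraries highest in Tlr1 were among the 15 libraries with lymph node RNA. Tlr9 had 0.299, 2.60 and 10.4 CPM on HFD and 0.911, 4.08 and 11.4 CPM on chow. Without these 15 libraries the Tlr1 change turned to 0.97 ± 0.20. The other estimates were 0.47 ± 0.11 for Tlr3, 0.61 ± 0.13 for Tlr7, 0.40 for Tlr4, 1.13 for Tlr8 and 1.02 for Tlr13. With 15 libraries left in the fit, some chow genotypes held a single library.

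In single genotypes of iWAT 11 of 40 tests were called. Tlr3, Tlr4 and Tlr8 were higher and Tlr1 lower in C57n:C57mt (16.7% of genes called, 9.38% higher, 7.28% lower). Tlr3, Tlr4 and Tlr8 were higher in C57n:C3Hmt (16.5% of genes called, 9.65% higher, 6.86% lower). Tlr3, Tlr7, Tlr8 and Tlr13 were higher in C3Hn:C57mt (7.71% of genes called, 4.34% higher, 3.37% lower), and 0 were called in C3Hn:C3Hmt (4.88% of genes called, 3.54% higher, 1.34% lower; 0 at an unadjusted p under 0.05, and 0 by DESeq2). Without iWAT HFD C3Hn:C3Hmt replicate 3, Tlr3 there was at 0.60 (adjusted p = 0.04443), against 0.30 (adjusted p = 0.383) with it. Tlr1 in C57n:C57mt had 5.48, 3.95, 4.11 and 3.63 CPM on HFD and 23.8, 2.70, 16.1 and 39.1 CPM on chow (-2.19 ± 0.75, adjusted p = 0.04627). Its 3 highest chow libraries hold lymph node RNA. With the lymphocyte marker mean as a covariate Tlr1 was at -0.40 ± 0.39 (adjusted p = 0.5425). In that fit Tlr3 (adjusted p = 0.06943), Tlr4 (adjusted p = 0.1001) and Tlr8 (adjusted p = 0.1148) of C57n:C57mt were not called either. With G+C and length trends removed 0 of the 40 tests were called. Leaving out single libraries ended 10 of the 11 calls in at least 1 fit, and Tlr4 in C57n:C3Hmt (1.07 ± 0.25, adjusted p = 0.005934) was called in all 30.

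Between depots on HFD, eWAT held more of 4 receptors than iWAT (23% of 18325 genes called, 10.1% higher, 13% lower). Tlr13 had 5.30, 31.4 and 280.5 CPM in eWAT and 1.60, 6.49 and 31.8 CPM in iWAT (1.91 ± 0.31, adjusted p = 1.063e-05), and Tlr8 9.96, 17.5 and 53.1 CPM in eWAT and 0.536, 9.92 and 16.8 CPM in iWAT (1.24 ± 0.31, adjusted p = 0.002876). In each, 7 of 14 eWAT libraries lay above all iWAT libraries. Tlr2 (0.44 ± 0.14, adjusted p = 0.01812) and Tlr6 (0.42 ± 0.15, adjusted p = 0.03831) were also higher in eWAT, but with the animal as a block, since 20 animals gave both depots, they were not (0.34 ± 0.14, adjusted p = 0.08513, and 0.38 ± 0.17, adjusted p = 0.1177). The Tlr2 call was also lost without HFD C3Hn:C3Hmt replicate 2 or C3Hn:C57mt replicate 3 of eWAT. Without the 6 eWAT libraries with epithelial RNA the 4 calls held. Tlr4 (0.31 ± 0.11, adjusted p = 0.0358) and Tlr7 (0.48 ± 0.14, adjusted p = 0.009781) were then also higher in eWAT.

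On chow 3 receptors were lower in eWAT than in iWAT and 0 higher (33.3% of genes called): Tlr1 (-1.70 ± 0.35, adjusted p = 0.0001625), Tlr9 (-1.22 ± 0.31, adjusted p = 0.002178) and Tlr2 (-0.37 ± 0.13, adjusted p = 0.02527). With the animal block Tlr2 was at -0.12 ± 0.18 (adjusted p = 0.6779). Without the 6 eWAT libraries with epithelial RNA, Tlr13 (0.80 ± 0.27, adjusted p = 0.01976) and Tlr8 (0.69 ± 0.27, adjusted p = 0.04912) were higher in eWAT, and Tlr2 was at -0.18 ± 0.13 (adjusted p = 0.3293). Tlr1 had 0.297, 2.47 and 5.89 CPM in eWAT and 0.477, 2.90 and 39.3 CPM in iWAT, so that only the upper ends of the ranges separated. Without the 21 libraries with epithelial or lymph node RNA, Tlr1 was at 0.71 ± 0.30 and Tlr9 at 0.53 ± 0.39, both with the sign turned. That fit left a single library in some chow iWAT genotypes. On HFD it gave higher estimates in eWAT for Tlr1 (0.78 ± 0.21), Tlr7 (0.63 ± 0.15) and Tlr4 (0.22 ± 0.08). Tlr2, Tlr6, Tlr8 and Tlr13 had higher estimates there too.

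The test of whether the diet response differs between depots called none of the 10 receptors by edgeR (8 at an unadjusted p under 0.05; 0.0437% of genes called). DESeq2 called 5 of them: Tlr1, Tlr2, Tlr6, Tlr9 and Tlr13. The share of all genes that DESeq2 called is not given here, and 0.0437% is the edgeR share. The estimates, eWAT response minus iWAT response, were highest for Tlr1 (1.81 ± 0.49, adjusted p = 0.09111), Tlr9 (1.40 ± 0.45, adjusted p = 0.1226) and Tlr13 (1.37 ± 0.42, adjusted p = 0.1092) and near 0 for Tlr5 (-0.03 ± 0.30) and Tlr3 (0.11 ± 0.13). C3Hn:C3Hmt replicate 3 of iWAT on HFD holds lymph node RNA. Without it, Tlr1 (2.09, adjusted p = 0.01366), Tlr2 (0.82, adjusted p = 0.01601) and Tlr6 (0.75, adjusted p = 0.04322) were called. Without C3Hn:C3Hmt replicate 1 of eWAT on HFD, a library with epithelial RNA, these and Tlr13 (1.42, adjusted p = 0.04948) were called. Without the 21 libraries with epithelial or lymph node RNA the estimates for Tlr1 and Tlr9 were 0.07 ± 0.37 and 0.12 ± 0.48.

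Between nuclear genomes, Tlr6 was lower with the C57 nucleus in all 3 tissues and on both diets. In eWAT on HFD it had 2.07, 2.00 and 2.42 CPM in C57n:C3Hmt and 3.90, 3.65, 3.01 and 4.82 CPM in C57n:C57mt, against 16.7, 14.4 and 18.1 CPM in C3Hn:C57mt and 7.21, 15.9, 9.68 and 8.86 CPM in C3Hn:C3Hmt (C57n minus C3Hn -2.07 ± 0.27, adjusted p = 9.05e-06; 13.2% of genes called, 7.59% lower). In eWAT on chow it had 0.885 to 1.78 CPM in 8 C57n libraries and 3.01 to 11.2 CPM in 7 C3Hn libraries (-2.41 ± 0.25, adjusted p = 5.471e-07; 15.1% called, 7.11% lower). The C57n and C3Hn ranges of Tlr6 did not overlap on either diet.

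In iWAT Tlr6 had 1.33 to 3.28 CPM in 8 C57n libraries and 6.10 to 14.2 CPM in 6 C3Hn libraries on HFD (-2.14 ± 0.18, adjusted p = 2.964e-09; 16.3% called, 8.04% lower), and 1.08 to 3.07 CPM in 8 C57n and 4.40 to 7.53 CPM in 8 C3Hn libraries on chow (-1.49 ± 0.16, adjusted p = 3.554e-07; 11.7% called, 6.01% lower). In muscle it had 0.0564 to 0.501 CPM with C57n and 0.687 to 1.57 CPM with C3Hn (-1.96 ± 0.29, adjusted p = 5.641e-05; 33.6% called, 16.5% lower). The ranges did not overlap here either. With macrophage markers as a covariate the values were -1.71 and -1.91 in eWAT on HFD and chow and -2.15 and -1.46 in iWAT on HFD and chow, and each was still called.

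Tlr1 ran the other way on chow. In iWAT it had 2.70, 22.3 and 39.3 CPM with C57n and 0.477, 2.14 and 2.92 CPM with C3Hn (3.69 ± 0.57, adjusted p = 5.321e-05), with 7 of 8 C57n libraries above all C3Hn libraries. In eWAT it had 1.71, 2.88 and 5.89 CPM with C57n and 0.297, 0.956 and 4.3 CPM with C3Hn (1.51 ± 0.39, adjusted p = 0.01299), with overlap. On HFD the differences were 1.13 ± 0.58 in iWAT (adjusted p = 0.1782) and 0.23 ± 0.39 in eWAT (adjusted p = 0.7724). In muscle Tlr1 was at 0 counts in 6 of 8 C3Hn libraries and at 0.0417 to 0.247 CPM in C57n libraries, under the filter on low counts; with no filter it was called.

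The share of Tlr6 in the sum of both genes was 31.3 to 47.9% with C57n and 70.9 to 83.5% with C3Hn in eWAT on HFD. In eWAT on chow it was 13.1 to 40.4% with C57n and 72.2 to 94.6% with C3Hn. In iWAT it was 15.3 to 38.2% with C57n and 59.4 to 87.9% with C3Hn on HFD, and 6.55 to 43.4% with C57n and 71.1 to 91.8% with C3Hn on chow. The nuclear genomes did not overlap in this share in fat. In muscle, at 1.25 to 32.8 expected Tlr6 counts per library, it was 25.0 to 92.3% with C57n and 93.6 to 100% with C3Hn. All reads were counted against mm9, which is a C57BL6/J sequence, and whether strain differences in the shared stretches move the split between the genes was not tested.

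The summed counts of Tlr1 and Tlr6 were lower with C57n in eWAT on HFD (-1.10 ± 0.28, adjusted p = 0.009389), in eWAT on chow (-0.84 ± 0.26, adjusted p = 0.03365) and in muscle (-1.49 ± 0.21, adjusted p = 4.189e-05), higher in iWAT on chow (1.62 ± 0.37, adjusted p = 0.003961), and not called in iWAT on HFD (-0.57 ± 0.39, adjusted p = 0.3259). The sum thus follows the sign of Tlr6 in eWAT and muscle and the sign of Tlr1 in chow iWAT.

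**Figure D4:**
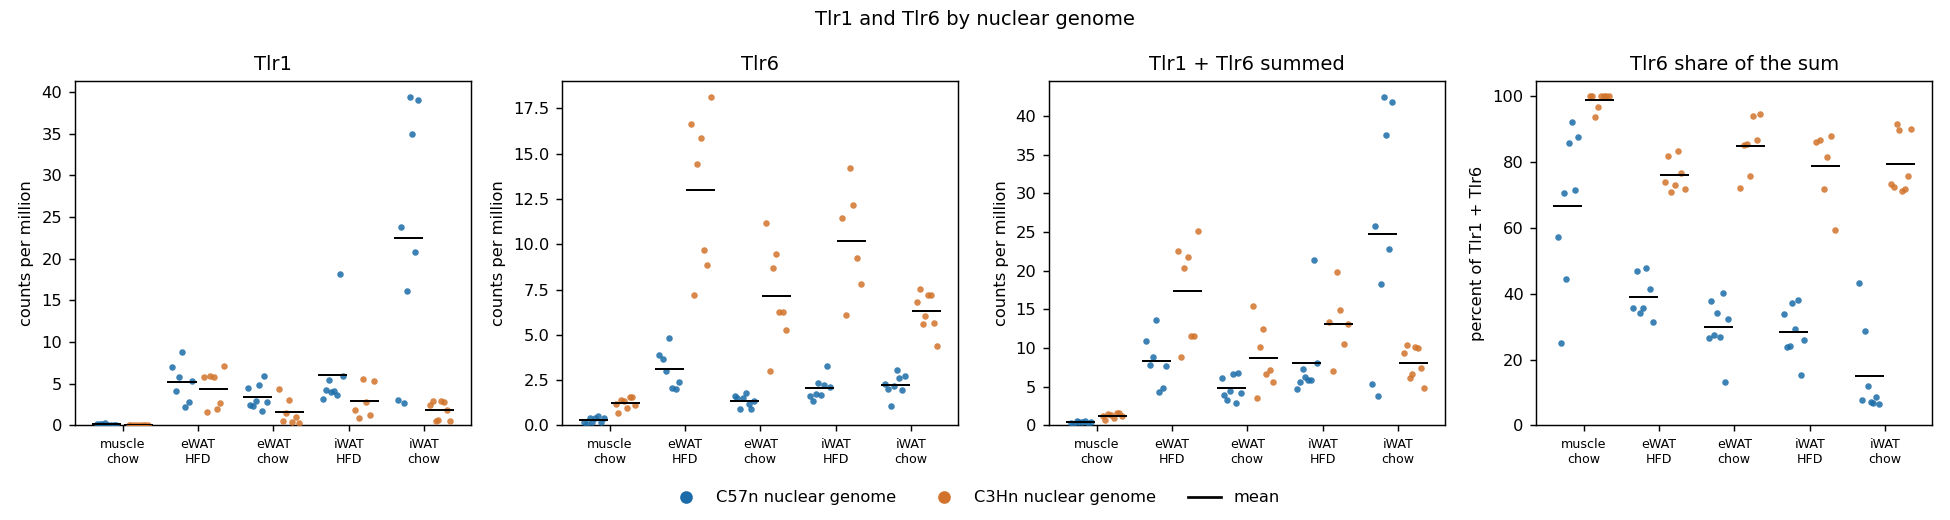
Tlr1, Tlr6 and their sum (CPM) and the share of Tlr6 in the sum (%) in each library by tissue and diet, with C57n in blue on the left and C3Hn in orange on the right of each column. In fat the share is at most 47.9% in every C57n library and at least 59.4% in every C3Hn library.

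In the 15 iWAT libraries with lymph node RNA, Tlr1 was 5.48, 22.3 and 39.3 CPM in the 8 C57n and 1.81, 2.88 and 5.61 CPM in the 7 C3Hn libraries. As a percentage of the summed B cell markers it was 2.50 to 4.55% with C57n and 0.185 to 1.11% with C3Hn, without overlap. Tlr9 in the same libraries was 0.512 to 2.36% of the B cell sum with C57n and 0.0824 to 1.86% with C3Hn, with overlap. With lymphocyte markers as a covariate over all iWAT libraries, Tlr1 differed by 2.97 ± 0.28 on chow (adjusted p = 2.099e-08) and by 1.28 ± 0.28 on HFD (adjusted p = 0.001506). Without the 15 libraries the differences were 2.25 ± 0.32 on chow and 1.46 ± 0.22 on HFD, with a single library left in some chow genotypes.

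**Figure D5:**
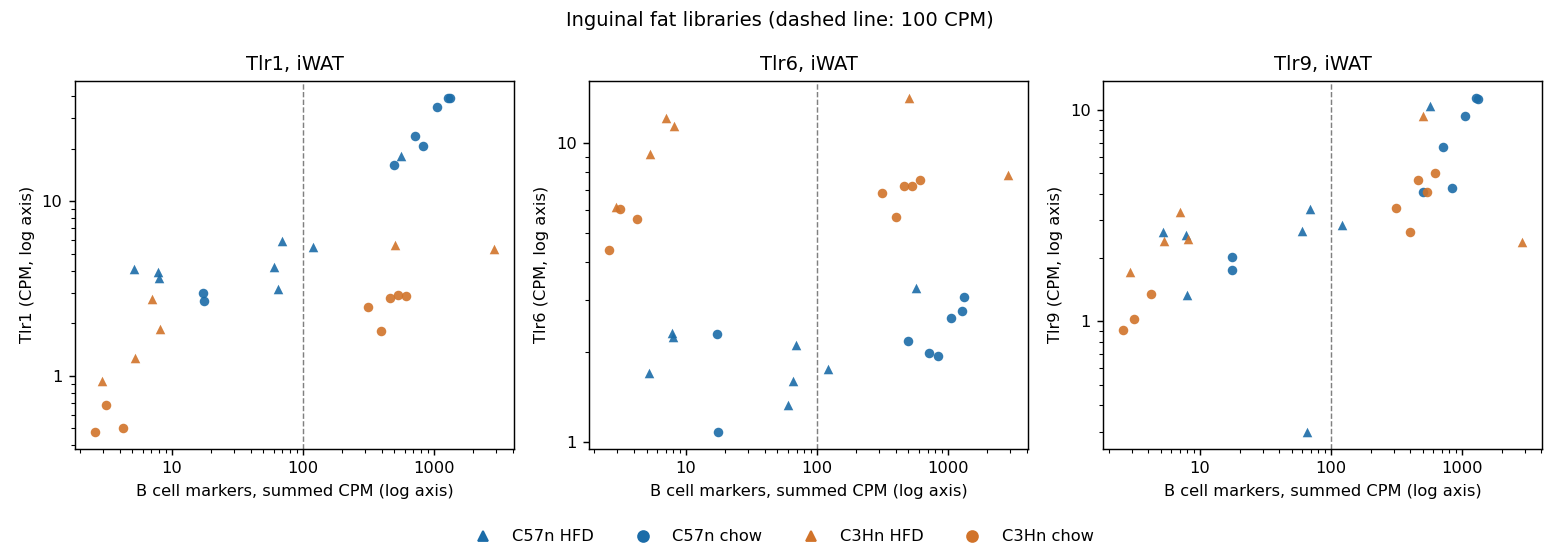
Tlr1, Tlr6 and Tlr9 (CPM, log axis) against the summed B cell markers (CPM, log axis) in the 30 iWAT libraries; the dashed line at 100 CPM separates the 15 libraries with lymph node RNA. To its right Tlr1 lies at 5.48 to 39.3 CPM in C57n and at 1.81 to 5.61 CPM in C3Hn libraries, and Tlr6 in the opposite order.

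Tlr13 was lower with the C57 nucleus in both depots. In eWAT on HFD it had 5.30, 12.5 and 39.3 CPM with C57n and 17.0, 97.2 and 280.5 CPM with C3Hn (-2.68 ± 0.54, adjusted p = 0.001563), and on chow 1.59, 3.0 and 5.05 CPM with C57n and 4.62, 29.5 and 61.1 CPM with C3Hn (-2.98 ± 0.52, adjusted p = 0.0004683). On chow 7 of 8 C57n libraries lay below all C3Hn libraries. In iWAT it had 1.60, 5.59 and 9.43 CPM with C57n and 5.18, 24.2 and 31.8 CPM with C3Hn on HFD (-1.70 ± 0.30, adjusted p = 0.000259), and 2.10, 3.72 and 6.58 CPM with C57n and 6.28, 8.87 and 11.3 CPM with C3Hn on chow (-1.04 ± 0.28, adjusted p = 0.01584). Again 7 of 8 chow C57n libraries lay below all C3Hn libraries.

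Macrophage markers were at 1322, 2064 and 3094 CPM in sum with C57n and 1154, 3552 and 6515 CPM with C3Hn in eWAT on HFD, and at 503, 990.0 and 1264 CPM with C57n and 523, 1902 and 3086 CPM with C3Hn on chow. With them as a covariate Tlr13 differed by -1.88 ± 0.19 on HFD and -1.51 ± 0.20 on chow in eWAT and by -1.67 ± 0.23 and -0.88 ± 0.22 in iWAT, and each was called. Without the 15 libraries with lymph node RNA, the chow iWAT difference was -1.66 ± 0.51, with a single library left in some chow genotypes. In muscle Tlr13 was not called (-0.51 ± 0.29, adjusted p = 0.2003), but without C57n:C3Hmt replicate 3 it was (-0.79, adjusted p = 0.03462).

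The other receptors were not called between nuclear genomes. In eWAT the receptors' median difference was -0.38 on HFD and -0.51 on chow, against -0.05 and 0.06 over all genes, and in iWAT -0.04 and -0.15 against -0.02 and 0.01. Tlr8 and Tlr7 in chow eWAT (-1.12 ± 0.44, adjusted p = 0.08312, and -0.91 ± 0.32, adjusted p = 0.05808) were called by DESeq2. Without chow C3Hn:C57mt replicate 2, a library with epithelial RNA, edgeR called both (Tlr8 -1.31, adjusted p = 0.01736; Tlr7 -1.07, adjusted p = 0.01265), as it did without chow C57n:C3Hmt replicate 3 (Tlr8 adjusted p = 0.04975, Tlr7 adjusted p = 0.0367), and it called Tlr7 without chow C57n:C3Hmt replicate 2 (adjusted p = 0.04341) or HFD C3Hn:C3Hmt replicate 1 (adjusted p = 0.04686). Without the 6 such libraries, Tlr2 (-0.64), Tlr7 (-0.69) and Tlr8 (-0.79) were called on HFD. With macrophage markers as a covariate Tlr2, Tlr7 and Tlr8 lay between -0.31 and 0.02 in eWAT and were not called. Tlr4 differed by 0.01 ± 0.24 in eWAT on HFD and -0.36 ± 0.23 on chow, and by 0.42 ± 0.19 (adjusted p = 0.139) and -0.15 ± 0.18 in iWAT; with lymphocyte markers (0.47 ± 0.14, adjusted p = 0.01261) or macrophage markers (0.48 ± 0.14, adjusted p = 0.01984) as a covariate, and without HFD C3Hn:C3Hmt replicate 1 (0.57, adjusted p = 0.04549), it was called in iWAT on HFD. Tlr9 in chow iWAT (1.20 ± 0.48, adjusted p = 0.1126) was called without C57n:C3Hmt replicate 1 (1.38, adjusted p = 0.04569).

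Whether the diet response differs between the nuclear genomes was tested directly, and edgeR called none of the receptors in eWAT (0% of genes called; 1 receptor at an unadjusted p under 0.05, and 0 by DESeq2) or iWAT (0.717% called; 3 at an unadjusted p under 0.05, and Tlr1 and Tlr6 by DESeq2). The estimate for Tlr1 in iWAT was -2.56 ± 0.77 (adjusted p = 0.07973), and for the sum with Tlr6 -2.19 ± 0.53 (adjusted p = 0.0518). In eWAT the estimates ran from -1.28 ± 0.55 (Tlr1) to 0.55 ± 0.39 (Tlr5).

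The study asks about the mitochondrial genome, and the exchange lines were compared with the wild type of the same nucleus. In 10 comparisons with 94 receptor tests edgeR called none (8 at an unadjusted p under 0.05), where 0 to 0.0113% of genes were called; DESeq2 called Tlr1 in chow eWAT of C3Hn (1.88 on the edgeR scale, adjusted p = 0.3124 by edgeR). Among the largest estimates was Tlr13 in eWAT on HFD, with 99.6, 159 and 280.5 CPM in C3Hn:C57mt and 17.0, 97.2, 68.7 and 48.6 CPM in C3Hn:C3Hmt. This Tlr13 difference did not pass the test (1.51 ± 0.71, adjusted p = 0.3815). In C57n it had 5.89, 5.30 and 23.5 CPM in C57n:C3Hmt and 11.8, 12.5, 14.0 and 39.3 CPM in C57n:C57mt, with overlap. For the difference of the diet response between mitochondrial genomes, 40 receptor tests gave 0 calls (0 at an unadjusted p under 0.05, 0 by DESeq2, and 0% of genes called).

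The genes around the receptors were read from lists. Of the co-receptors and chaperones 7 of 9 were higher on HFD in eWAT (list median 0.61, all genes -0.10; 18.5% of all genes higher), among them Cd180 (1.71 ± 0.32), a receptor relative of B cells and macrophages, its partner Ly86 (1.08 ± 0.25), the lipopolysaccharide transfer protein Lbp (0.77 ± 0.24) and the Tlr4 partner Ly96 (0.61 ± 0.18). In iWAT 4 of 9 were higher and 1 lower (median 0.28, all genes 0.01; 21.4% of all genes higher, 16.2% lower): Lbp (0.87 ± 0.34), the scavenger receptor Cd36 (0.63 ± 0.17), Ly96 (0.40 ± 0.14) and the chaperone Hsp90b1 (0.25 ± 0.07) were higher, and Unc93b1 (-0.27 ± 0.11), which carries endosomal receptors, was lower, whereas it was higher in eWAT (0.57 ± 0.21).

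Of 24 adaptors and signalling genes 13 were higher and 4 lower on HFD in eWAT (median 0.31; 18.5% of all genes higher, 22.9% lower), with the kinase Map3k7 (0.57 ± 0.08), the kinase complex subunit Ikbkg (0.51 ± 0.07) and Map3k7ip2 (0.49 ± 0.08) higher and the transcription factor Irf3 lower (-0.40 ± 0.07). In iWAT 9 were higher and 6 lower (median -0.07; 21.4% of all genes higher, 16.2% lower), with Map3k7 (0.51 ± 0.09) and Chuk (0.49 ± 0.04) higher and Map3k7ip1 (-0.48 ± 0.07) and the NF-kB subunit Rela (-0.36 ± 0.05) lower. The common adaptor Myd88 was at -0.04 ± 0.10 in eWAT and -0.03 ± 0.07 in iWAT.

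Of 15 inhibitors of the pathway 6 were higher and 2 lower in eWAT (median 0.13; 18.5% of all genes higher, 22.9% lower), led by Tnip3 (2.0 ± 0.43), Pik3ap1 (1.41 ± 0.23) and Tnfaip3 (0.71 ± 0.16), with Sigirr lower (-0.93 ± 0.21). In iWAT 3 were higher and 2 lower (median -0.10), shares near or below those of all genes (21.4% higher, 16.2% lower), with Tnip3 (1.02 ± 0.30), Il1rl1 (0.44 ± 0.16) and Irak3 (0.28 ± 0.08) higher and Tnip1 lower (-0.35 ± 0.07). Of 20 target genes tested 7 were higher in eWAT and 0 lower (median 0.39; 18.5% of all genes higher, 22.9% lower), among them Il1rn (2.44 ± 0.44), Ccl2 (1.92 ± 0.44), Il6 (1.79 ± 0.32) and Cxcl1 (1.18 ± 0.28). In iWAT 2 were higher (median 0.47; 21.4% of all genes higher), Ccl2 (1.32 ± 0.30) and Il1rn (0.93 ± 0.19). The classical targets Tnf (0.21 ± 0.28 and -0.09 ± 0.34) and Il1b (0.36 ± 0.25 and 0.52 ± 0.34) did not pass the test in eWAT or iWAT.

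Between nuclear genomes Tnip1, an inhibitor of NF-kB, was lower with C57n in each of the 5 comparisons (-1.0 ± 0.19 and -1.25 ± 0.18 in eWAT on HFD and chow, -0.85 ± 0.11 and -0.57 ± 0.10 in iWAT, and -0.48 ± 0.05 in muscle). Il1rn, the interleukin-1 receptor antagonist, was lower in the 4 fat comparisons (-2.45 ± 0.63 and -3.60 ± 0.63 in eWAT, -2.0 ± 0.27 and -1.54 ± 0.26 in iWAT), and Cd14, the lipopolysaccharide co-receptor, in eWAT (-1.22 ± 0.31 and -1.22 ± 0.29). Lbp was higher with C57n on HFD (1.29 ± 0.35 in eWAT, 1.72 ± 0.52 in iWAT). Of the other mouse receptors, Tlr11 was higher on HFD in eWAT (0.86 ± 0.18) and lower with C57n there (-1.64 ± 0.26 on HFD, -1.26 ± 0.25 on chow), and Tlr12 was higher with C57n in chow eWAT (2.15 ± 0.71, adjusted p = 0.04442).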

How the data were processed

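RNA of 75 libraries was sequenced on an Illumina HiSeq. Per the labels, reads were mapped to mm9 with the sequencing provider's own algorithm; the submitters' processing notes name RSEM and DESeq2 1.10.1. The authors deposited RSEM expected counts per gene, in 1 table for chow (22423 genes) and 1 for HFD (21983 genes), and G+C content as a percent per library in deposited summary tables. The 21625 shared genes were used. Expected counts were rounded and tested with edgeR 4.0.16 in R 4.3.3 (TMM scaling, filterByExpr with a minimum count of 10, total of 15 and share of 70%, quasi-likelihood F test, Benjamini-Hochberg adjustment over all genes tested, threshold 0.05); all adjusted p-values are from this test unless DESeq2 1.42.0 is named. Each tissue was fitted alone, with 1 mean per group. Depots and tissues were compared in joint fits. Printed shares of genes called are from these edgeR fits and are not given for DESeq2 or the other settings. Printed CPM are expected counts over the library total, and RPKM also divide by merged exon length (NCBIM37). The test was checked on simulated counts. Depth limits precision where counts are low: Tlr1, Tlr8 and Tlr9 fell under the filter in muscle. Replicates have different animal numbers. Across the 20 animals that gave both depots, residuals correlated at -0.08 to 0.50 (median 0.17, above 0.1 in 13); the pairing comes from the titles. The receptors, gene lists and marker lists were chosen with earlier results of these data known, and 4 listed genes are in neither table. All 10 receptors were named. Of each pathway list, up to 4 called genes with the lowest adjusted p for diet in a depot were named. Up to 2 were named between nuclear genomes. Of the 3 genes most correlated with a receptor in a depot, at least 1 was named. Unc93b1, Tnf, Il1b and Myd88 were chosen after their values were seen.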

Additional observations from a re-analysis of the deposited data

Results flagged for a closer look

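In 149 groups of 4 libraries with a value for a receptor, 7 held a library far from the other 3 by Dixon's test at 95%, where chance gives about 1 in 20, or 7.45. Tlr13 was 39.3 CPM in eWAT on HFD in C57n:C57mt replicate 4, with the other 3 at 11.8 to 14.0 CPM. Tlr2 was 20.1 CPM in eWAT on HFD in C3Hn:C3Hmt replicate 2, with the others at 9.55 to 10.9 CPM. Tlr3 was 26.3 CPM in iWAT on HFD in C57n:C57mt replicate 1, with the others at 23.2 to 23.6 CPM. In chow iWAT, Tlr1 was 0.677 CPM in C3Hn:C57mt replicate 2 (others 2.81 to 2.92 CPM), Tlr7 was 12.1 CPM in C3Hn:C57mt replicate 4 (others 10.5 to 10.7 CPM), and Tlr7 was 15.2 CPM in C57n:C57mt replicate 4 (others 7.22 to 8.47 CPM). Tlr6 was 0.378 CPM in gastrocnemius of C57n:C3Hmt replicate 3, with the others at 0.183 to 0.198 CPM.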

How the results depend on the processing

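The summed Tlr1 and Tlr6 counts, the fits without 15 or 21 libraries and the marker covariates between nuclear genomes were chosen after seeing the data. Receptors called moved to 3 with the macrophage covariate for diet in eWAT (9 in the reported fit). In iWAT (5) they moved to 1 with G+C and length trends removed and to 2 with the macrophage covariate. The iWAT count also moved without 15 libraries, where some chow genotypes kept a single library. Within genotypes the calls moved to 6 with the run covariate and 3 with G+C trends removed in eWAT (14), and to 5 with no filter and 0 with G+C trends removed in iWAT (11). The run covariate separates only the HFD run codes from each other. Between nuclear genomes they moved to 5 by DESeq2 in chow eWAT (3), 5 without 6 libraries in eWAT on HFD (2), 4 with the lymphocyte covariate in iWAT on HFD (2), and 2 with no filter in muscle (1). DESeq2 called 2 for diet by nucleus in iWAT, 1 for exchange lines and 5 for depot by diet, each 0 by edgeR. Between depots, the counts moved on chow (3) and on HFD (4) without 21 libraries, where some chow iWAT genotypes kept a single library. With the replicate block (animal), 2 were called on HFD and 2 on chow. Leaving out single libraries gave 9 to 9 and 5 to 7 for diet in eWAT and iWAT, 7 to 17 and 4 to 13 within genotypes, 3 to 5, 2 to 2, 3 to 4, 2 to 3 and 1 to 2 between nuclear genomes (chow eWAT, HFD eWAT, chow iWAT, HFD iWAT, muscle), 0 to 0 and 0 to 2 for diet by nucleus, 0 to 0 for exchange lines and diet by mitochondrial genome, 2 to 5 and 2 to 4 between depots on chow and HFD, 0 to 4 for depot by diet, and 10 to 10 for muscle against either depot. The sign turned with summed counts for Tlr1 between nuclear genomes in eWAT (-0.84 on chow, -1.10 on HFD), for Tlr6 there in chow iWAT (1.62) and for Tlr6 on HFD in iWAT of C57n:C57mt (-1.78), since the sum replaces both genes; for Tlr1 on HFD in iWAT without 15 libraries (0.97); and for Tlr1 (0.71) and Tlr9 (0.53) between depots on chow without 21 libraries, where the cause was not tested.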
